A study of Mus musculus with 2 samples.

Results

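Transcripts annotated as substrates of nonsense-mediated decay were detected at a TPM of 1 or more, TPM being a length-corrected relative transcript level, in both macrophage libraries for 1057 of the 7186 transcripts of that type in the annotation, or 14.7%. They were selected on measured values: the TPM of the first of the 2 deposited transcript quantifications had to reach 1 in each library. At the same minimum, 20447 of 141767 annotated transcripts of any type were kept, among them 15064 typed protein_coding and 2219 typed retained_intron. The chosen transcripts lay in 916 genes. Most of these genes (802) had a single one, 96 had 2, and the gene with the most, Tmem234, had 7.

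The series holds 2 polyA-selected RNA-seq libraries from bone-marrow-derived macrophages of C57BL/6J mice, a primary cell grown from marrow progenitors. Both cultures received Lipid A, the part of bacterial endotoxin that Toll-like receptor 4 binds, at 100 ng/ml for 12 h, were kept without it for 12 h, and were then given 100 ng/ml again for 300 min. A second field of the labels names the agent lipoprotein A. The libraries are 2 biological replicates of that 1 group and carry the same donor identifier. Whether they come from separate animals is not stated, so the SD may hold technical spread only, and age and sex are not given. There was no untreated group and no group with decay blocked. No response to Lipid A and no decay rate could therefore be measured, and with 2 samples no test was made: every value below is a level or a share, as the mean ± SD of 2 libraries.

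Nonsense-mediated decay is the pathway that removes messenger RNAs on which translation ends too early. In mammals the main cue is an exon junction complex left on a splice junction well downstream of the stop codon. The helicase Upf1 is recruited at the stop, the kinase Smg1 phosphorylates it, and proteins such as Smg5 and Smg6 then bring about degradation of the RNA. Cells also use the pathway to set the level of normal genes: many splicing factors include an exon with an early stop, often called a poison exon, in their own RNA and so lower their own output. The annotation's type is a prediction from transcript structure, mainly the position of the stop codon, and not a measurement of decay.

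The stop codons of the transcripts on which the results below turn are shown first, because the position of that codon is what defines the class. Each line gives the last 27 coding bases in lower case and the stop codon in capitals, 5′ to 3′, read from the GENCODE M21 transcript sequences (mm10). The first 3 end inside exons that no protein_coding transcript of the gene contains and belong to splicing factors of the SR family and its Tra2 relatives.
Srsf3-201: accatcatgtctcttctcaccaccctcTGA
Tra2a-202: aaaaaattgaacagaagattggtcagaTAG
Tra2b-206: aatgagtatttgaagctcaggaataagTGA
The next 6 are transcripts that were the highest of their gene in both libraries or, for Ppia-201 and Rgs1-204, in 1 of them. They end inside exon sequence that protein_coding transcripts also use or, for Rgs1-204, in an exon longer than theirs.
Ppia-201: caaagacagcagaaaactttcgagctcTGA
Rgs1-204: aagcagaaaaaaaggccaaagactttaTAA
Oasl2-205: aaccagcaccggcaatctacgagactcTGA
Rpsa-206: tggccgcttcacacctgggaccttcacTAA
Hnrnpu-206: gtccatgtgaatgtgctgtgtgaagagTAA
Mrps14-201: ttactatgtagactggagaatgttgcgTGA
Another 2 use the stop codon of a protein_coding transcript of the gene, with 2 junctions after it in Srsf2-204 and 1 in Cxcl16-202.
Srsf2-204: ccagaagaagagggagcagtttcttccTAA
Cxcl16-202: tggtacactcctgttgaaccaagacccTAG
The last 5 are shown because the quantifications or the annotation make their values uncertain. Mx1-203, which was 4-fold or more higher in the second quantification, ends at the same codon as Mx1-205 and has the same last 30 bases.
Mx1-205: atctgtagatggtccaaactgccttcgTAA
Gpnmb-202: atgtgtggaggtcagtggacaagtctgTGA
Ctsh-202: tttaagtcatggatgaaacagtggcatTGA
Myof-205: tcatcgtgtggcgccggttcaagtgggTGA
Xaf1-201: aaacccgttgtgatctttgcaaacaaaTGA

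The stop codon of Srsf3-201 lies at chr17:29039485-29039487 on the plus strand, in an exon of 456 nt with 3 junctions after it. That of Tra2a-202 lies at chr6:49252965-49252967 on the minus strand in an exon of 306 nt, with 7 junctions after it. In Tra2b-206 it lies at chr16:22259181-22259183 on the minus strand in an exon of 276 nt, with 8 junctions after it. The stop of Hnrnpu-206 is at chr1:178325281-178325283 (minus strand) and precedes the last junction by 183 nt. The codon shared by Mx1-205 and Mx1-203 is at chr16:97451528-97451530 on the minus strand, 311 nt before the last junction. C57BL/6 mice are known to carry a deletion of several Mx1 exons that shifts its reading frame, and the annotation is built on that strain's genome. Rgs1-204 stops at chr1:144248605-144248607 (minus strand) in an exon of 130 nt that is longer than its protein_coding counterpart.

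Of the 1057 transcripts, 1056 have an annotated stop codon and a splice junction, and in 1053 (99.7%) the stop lies 50 nt or more before the last junction. The median distance was 356 nt, with quartiles of 179 and 775 nt and a maximum of 7549 nt. Only 3 had a shorter distance, the least being the 29 nt of Xaf1-201. Among protein_coding transcripts at the same minimum the stop lay a median of 133 nt past the last junction (a distance of -133 nt), and 41 of them (0.300%) met the 50-nt line. The type rests largely on that distance, so the contrast is a check of the labels and not a finding. Transcripts of the same type that did not reach the minimum had a median distance of 329 nt, so the chosen ones stood close to the rest of their type on this measure. A median of 3 junctions followed the stop, and 221 transcripts had only 1.

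**Figure D1:**
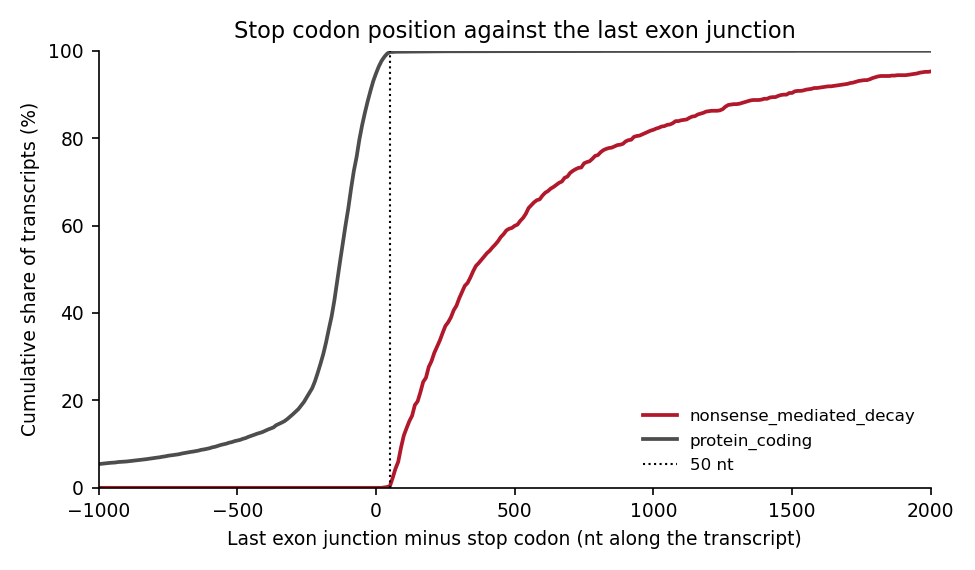
Cumulative share of transcripts (%) against the distance from the stop codon to the last exon junction along the transcript (nt, positive where the junction lies downstream), for the chosen nonsense_mediated_decay transcripts and for protein_coding transcripts at the same minimum. The dotted line marks 50 nt. The chosen transcripts lie almost wholly to its right, with a median of 356 nt, and protein_coding transcripts to its left, with a median of -133 nt. The axis ends at 2000 nt, short of the largest distances.

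The stop codon sat inside exon sequence of a protein_coding transcript in 636 (60.2%). It sat in an exon absent from protein_coding transcripts in 184 (17.4%), in a lengthened exon in 136 (12.9%) and at the stop codon of a protein_coding transcript in 87 (8.23%). In transcripts of the type below the minimum, the exon-based class made up 20.4%. The codon was TGA in 577 (54.6%), TAA in 255 (24.1%) and TAG in 224 (21.2%), against 51.3%, 26.1% and 22.6% in protein_coding transcripts. The annotated coding stretch was short, with a median of 279 nt against 1143 nt in protein_coding transcripts, and the whole transcript had a median of 1505 nt against 2428.5 nt. In 260 of the 1057 the model has no start codon, so that these are partial models.

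These transcripts were a small part of the RNA. They held 1.51% of all TPM in replicate 1 and 1.71% in replicate 2, and all transcripts of the type together held 1.62% and 1.81%. Their median level was 3.87 TPM, with quartiles of 2.18 and 9.56 TPM, below the 8.24 TPM of protein_coding transcripts and close to the 3.23 TPM of retained_intron transcripts at the same minimum. In both libraries, 220 reached 10 TPM and 24 reached 100 TPM. The 15 highest held 37.2% of their summed mean TPM.

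Gpnmb-202 had the highest TPM, with 1014 in replicate 1 and 2002 in replicate 2, and it is the least certain of the high values. Gpnmb encodes a transmembrane glycoprotein of lysosomes and is abundant in macrophages. The transcript is a model of 365 nt with 3 exons. In the second quantification its TPM was 27.2 and 100, and its share of the gene went from 32.2% ± 8.02 (SD, n = 2) in the first to 2.00% in the second. Replicate 2 was the higher in both quantifications, and the difference between quantifications was larger than that between libraries.

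Ppia-201 followed, from the gene of cyclophilin A, a peptidyl-prolyl isomerase. Its TPM was 680 and 879 in the first quantification and 439 and 618 in the second, and its share was 57.5% ± 11.5 and 57.0%. It led the gene in replicate 2, where it held 65.6%, and in replicate 1 the protein_coding Ppia-202 stood level with it at 685 TPM. Ppia has many processed pseudogenes, and how reads shared with them were counted is not given in the sources used here.

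Rgs1-204 had 588 and 685 TPM in the first quantification and 521 and 610 in the second. Rgs1 encodes a GTPase-activating protein that dampens chemokine receptor signalling. Its share was 45.6% ± 2.94 and 51.4%, next to a retained_intron transcript of 414 nt, Rgs1-203, with 45.4% ± 1.07. No protein_coding transcript of Rgs1 came above 6.40% ± 1.88. The transcript ranked first in replicate 1 and second to Rgs1-203 in replicate 2.

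**Figure D2:**
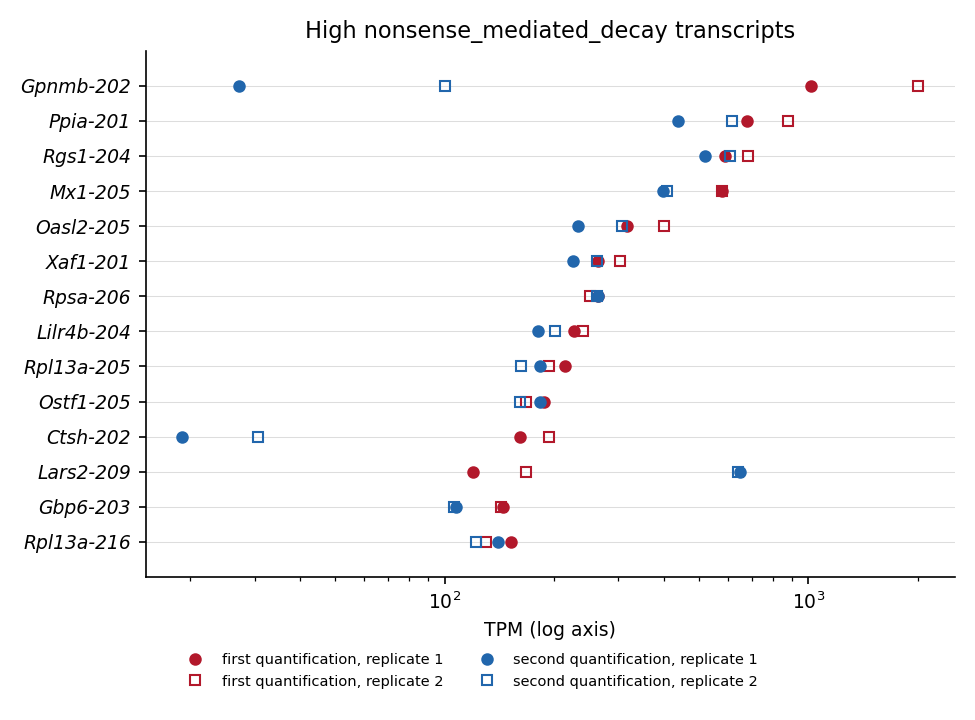
TPM (log axis) of 14 of the 15 nonsense_mediated_decay transcripts with the highest mean TPM in the first quantification, 1 symbol for each library (circles replicate 1, squares replicate 2) and quantification (red first, blue second). Gpnmb-202 and Ctsh-202 lie far lower in the second quantification and Lars2-209 far higher, at 649 and 641 TPM, while the other 11 shown differ by less than 2-fold between the quantifications.

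Interferon-stimulated genes supplied some of the most abundant members. Mx1-205 had 580 and 581 TPM, Oasl2-205 had 317 and 402, Xaf1-201 had 264 and 303, and Oas1g-203 had 139 and 118. Mx1 encodes an antiviral dynamin-like GTPase, Oasl2 and Oas1g belong to the oligoadenylate synthetase family, and Xaf1 is a pro-apoptotic interferon target. Each of these 4 was the highest transcript of its gene in both libraries. Their shares were 42.1% ± 3.56, 57.6% ± 4.27, 46.0% ± 0.266 and 49.8% ± 2.90 in the first quantification and 26.5%, 46.5%, 41.4% and 54.3% in the second. For Mx1 the next transcript in the first quantification was the protein_coding Mx1-204, a partial model of 481 nt, with 271 and 347 TPM. Of 17 expressed genes of this list with an annotated transcript of the type, 12 (70.6%) had one at the minimum. Over all genes expressed at 1 TPM or more in both libraries with the type annotated, it was 30.2%. The median gene level over the 14 transcripts of the list was 842 TPM, where the minimum is easier to reach. Their median share was 3.99%, beside 3.69% for all chosen transcripts of genes at 100 TPM or more. These leaders were the upper end of a wide range that began at 0.170%, for Rsad2-202.

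Ribosomal protein genes were the other abundant group, with 16 transcripts in 12 of 19 genes that have the type annotated (63.2%, against 30.2% over all genes). The median gene level over the 16 was 505 TPM, where the minimum is easier to reach. Their median share was 5.37%, beside 3.69% for all chosen transcripts of genes at 100 TPM or more. Rpl13a had 4 such transcripts that summed to 33.1% ± 2.50 of the gene, and 34.1% in the second quantification. Rpsa-206, with 264 and 250 TPM, was the only one of the 16 that led its gene, at 68.5% ± 1.37 against 30.03% ± 0.677 for the protein_coding Rpsa-201. Like Ppia, these genes have many near-identical processed copies, so that their values are uncertain. In Rpl12, the gene of Rpl12-201, the total itself moved: the gene had 188 and 186 TPM in the first quantification and 10.3 and 5.60 in the second.

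The central measure was the share of the gene, the TPM of the transcript as a percentage of the summed TPM of all transcripts of its gene in the same library. Its median over the 1057 transcripts was 13.6%, with quartiles of 4.95% and 31.1%, and 13.4% and 13.6% in replicates 1 and 2 taken alone. Protein_coding transcripts at the same minimum had a median of 51.6%, processed_transcript ones 14.2% and retained_intron ones 5.93%. Recomputed from the second quantification, the median was 12.5%. The shares differed from the isoform percentages deposited with the first quantification by at most 0.230 percentage points. TPM divides counts by length, and these transcripts are short: by expected counts the median share was 8.66%.

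The share was lower in genes of higher level, and the minimum bears on this, since a transcript at 1 TPM can be a large share only of a weak gene. In the 145 transcripts of genes under 10 TPM the median was 40.0%, in the 650 of genes from 10 to 100 TPM it was 13.5%, and in the 262 of genes at 100 TPM or more it was 3.69%. Read by gene, the type was minor in most cases. Among 6228 genes at 10 TPM or more in both libraries, 1902 have a transcript of the type annotated, and its summed share had a median of 2.29% in replicate 1 and 2.00% in replicate 2. It was 0 in 393 and 433 of these genes and 50% or more in both libraries in 55. The chosen transcripts came from 759 (39.9%) of the 1902.

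In 169 cases (16.0%) the transcript was the highest of its gene in both libraries. This held for 55.2% of protein_coding, 14.8% of processed_transcript and 6.85% of retained_intron transcripts. In 129 of the 169 cases the transcript was the highest in both libraries of the second quantification as well. Another 73 led in 1 library only. Of the 169, 13 lay in genes with no protein_coding transcript, 11 of them as the gene's only transcript. The share was 50% or more in both libraries for 87 transcripts and under 5% in both for 221.

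The highest shares were taken in genes at 10 TPM or more in both libraries. Gm20716-201 is the only transcript of its gene and so had 100%, with 24.1 and 30.1 TPM. Mrps14-201 and Mrpl32-201, from genes of the mitochondrial ribosome, had 42.3 and 46.1 TPM and 47.2 and 57.4 TPM, and held 86.0% ± 2.24 and 79.1% ± 3.87 of their genes. Pet100-206, of a gene needed to assemble cytochrome c oxidase, held 83.5% ± 6.48, and Dnajc15-201, of a mitochondrial co-chaperone, 76.8% ± 2.21. The second quantification gave 84.0%, 80.3%, 80.3% and 77.7% for these 4. In Mrps14 the protein_coding Mrps14-203 is a model of 2999 nt against 674 nt for Mrps14-201, and it had 11.2% ± 2.08. In Dnajc15 the protein_coding Dnajc15-202 is one of 6193 nt against 674 nt for Dnajc15-201, and it had 7.92% ± 2.02. TPM divides counts by length, so a high share of TPM need not be a high share of reads. Lars2-209 held 93.9% ± 1.79 of its gene, and 89.9% in the second quantification.

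Other transcripts that made up most of their gene came from varied functions. Aptx-205, of a DNA end-processing enzyme, held 84.3% ± 1.33. Gtpbp4-201, of a GTPase of ribosome assembly, held 84.0% ± 1.30, and Ifi214-201, of the interferon-inducible p200 family, 98.0% ± 0.991. Ppp2r2a-203, of a regulatory subunit of protein phosphatase 2A, had 57.4 and 81.3 TPM and 72.8% ± 3.11. Uggt1-209, of the glucosyltransferase that checks glycoprotein folding, held 71.9% ± 2.19 with 32 junctions after its stop codon. Commd2-201, Rxylt1-201 and Senp2-205 held between 72.1% and 76.8%. The limit of length given above holds here too: the protein_coding Commd2-202 is a model of 2992 nt against 892 nt for Commd2-201. Of the 15 transcripts with the highest shares, Ifi214-201 and Senp2-205 moved most in the second quantification, to 82.2% and 58.5%.

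Genes of RNA processing are the textbook case of control by this pathway. Of the genes expressed at 1 TPM or more in both libraries with the type annotated, 6 of 11 SR-type splicing factor genes, 15 of 24 hnRNP and related genes and 16 of 27 genes of the core spliceosome and its kinases had a transcript at the minimum. Over all genes this was 916 of 3029 (30.2%). These lists hold well-expressed genes, for which the minimum is easier to reach, and no test was made.

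Hnrnpu-206 stood out in the hnRNP list, in both quantifications. Hnrnpu encodes a large nuclear protein that binds RNA and chromatin. The transcript had 137 and 115 TPM in the first quantification and 135 and 111 in the second, so that the quantifications differed by less than the libraries did. It held 78.1% ± 2.67 of the gene, and 73.0% in the second quantification, against 16.6% ± 0.916 for the protein_coding Hnrnpu-201 of 7640 nt. The other 26 transcripts of the list went down to 0.858%, and the list's median was 5.37%.

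Tardbp, the gene of TDP-43, had 4 transcripts of the type that together held 44.0% ± 1.90 of the gene (45.1% in the second quantification). TDP-43 lowers its own messenger by alternative splicing of its last exon, and whether these transcripts arise from that was not tested. Tardbp-208 had 38.1 and 38.9 TPM, and Tardbp-228 had 33.3 and 25.1 TPM. Tardbp-208 is a model of 2 exons with no base and no junction of its own, so all its sequence is shared with other transcripts of the gene. Tardbp-228 stops inside protein_coding exon sequence with 2 junctions after the stop. Tardbp-208 was the highest transcript of the gene in both libraries, just above the protein_coding Tardbp-214 with 32.1 and 37.8 TPM. Hnrnpa1-203 held 22.1% ± 4.58 and Hnrnpd-208 12.4% ± 3.30. In the spliceosome list Ddx5-208, of an RNA helicase, had 149 and 86.1 TPM and 30.03% ± 8.64. Its share was 48.7% ± 5.25 in the second quantification, where it had 216 and 157 TPM against 151 and 167 for the protein_coding Ddx5-201. Clk1-210, of a kinase of SR proteins, had 6.68 and 6.15 TPM and 18.8% ± 3.56. Ccnl1, a cyclin tied to splicing kinases, had 4 transcripts that summed to 53.5% ± 1.10 of its gene.

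Among the SR genes, Srsf2-204 had 35.8 and 47.7 TPM and 39.1% ± 5.12 of the gene, Srsf6-201 had 15.6 and 18.01 TPM and 34.5% ± 3.08, and Srsf3-201 had 11.6 and 11.8 TPM and 12.0% ± 0.488. Tra2a-202 had 4.11 and 4.33 TPM and 6.41% ± 0.132, and Tra2b-206 had 6.11 and 1.88 TPM, a difference between libraries of over 2-fold. The second quantification gave higher shares for the transcripts with the poison exons shown above: 20.8% for Srsf3-201, 22.01% for Tra2a-202 and 6.45% for Tra2b-206. For Srsf6-201 it gave 51.1%, and for Srsf2-204 a lower share, 27.3%. Srsf2-204 and Srsf3-201 have no base and no junction of their own, so all their sequence is shared with other transcripts of the gene. Srsf6-201 and Tra2b-206 have 1 junction and no base of their own, and Tra2a-202 has 306 bases and 2 junctions.

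Of the decay pathway itself, all 25 genes listed were expressed and none differed by 2-fold or more between the libraries, with a median of 19.9 TPM. Upf1 had 20.7 and 19.0 TPM, Upf2 15.2 and 12.5, Smg1 15.8 and 14.7, and Smg6 4.75 and 5.01. The junction complex genes Magoh, Eif4a3 and Rbm8a had means of 79.6, 71.3 and 32.4 TPM. Only 5 of the 25 have a transcript of the type annotated, and a single one reached the minimum, Magohb-203, at a mean of 1.88 TPM and 4.51% ± 1.18 of its gene. A list of 26 genes often described as targets of the pathway had the type annotated for 15. Those without it included Atf4, Ddit3, Gadd45a, Gadd45b, Gas5, Snhg1 and Snhg12. In 12 of the 15 (80%) there was a transcript at the minimum, against 30.2% over all genes. The median gene level over these transcripts was 165 TPM, where the minimum is easier to reach. One was Sat1-207, of the polyamine-acetylating enzyme, with 41.7 and 38.5 TPM and 6.89% ± 0.368. The list of targets overlaps lists above, so its count is not separate from theirs. Its highest share is that of Srsf2-204, and its lowest, 0.176%, is also the lowest of the ribosomal list.

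In macrophage effector genes the median shares were 3.36% for cytokine, 2.01% for antigen presentation, 3.92% for lysosomal and 7.93% for Toll-like receptor and NF-kB genes. The first 3 stand beside 3.69% for all chosen transcripts of genes at 100 TPM or more, since the median gene level in these lists was 207, 188 and 288 TPM. At such gene levels the minimum is easier to reach. In the Toll-like receptor and NF-kB list the median gene level was 60.1 TPM. All chosen transcripts of genes from 10 to 100 TPM had a median share of 13.5%. In the second quantification the 4 medians were 3.57%, 4.02%, 3.40% and 3.58%, in the same order. Of the 4 Toll-like receptor and NF-kB transcripts, 3 were 2-fold or more higher in the first, against 8.2% of all transcripts at the minimum. Of 14 genes of cytokines, chemokines and their receptors with the type annotated, 8 (57.1%) had one at the minimum, against 30.2% over all genes. Cxcl16-202, of the transmembrane chemokine CXCL16, had 100.04 and 134 TPM and 38.2% ± 7.19. Il4ra-205, of the IL-4 receptor chain, had 26.2 and 22.9 TPM and 46.9% ± 1.47, which was 75.8% in the second quantification. Il15-209 had 29.7 and 38.0 TPM and 10.7% ± 0.551. Of 15 expressed genes of Toll-like receptor and NF-kB signalling with the type annotated, 4 (26.7%) had one, near the share over all genes. All were under 15%: Nfkb1-207, and Rnf31-207, Sharpin-213 and Otulin-203 of the linear ubiquitin machinery.

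In antigen presentation, 5 of 6 genes with the type annotated (83.3%) had one, against 30.2% over all genes. H2-Eb1-205, of the class II beta chain, had 40.4 and 77.4 TPM and 37.9% ± 5.28 and was the highest of its gene in replicate 2. Psmb9-207, of an immunoproteasome subunit, had 27.5 and 22.5 TPM and 13.4% ± 2.44, and 22.1% ± 2.97 in the second quantification. In lysosomal and phagocytic genes, 7 of 12 (58.3%) had one, led by Ctsh-202 and by Fcgr1-202. Fcgr1-202, of the high-affinity IgG receptor, had 31.0 and 21.7 TPM and 4.19% ± 0.954. Among 22 genes of glycolysis, the TCA cycle and respiration, 6 (27.3%) had one, near the share over all genes. Gpi1-207, of glucose-6-phosphate isomerase, had 26.6 and 40.6 TPM and 27.01% ± 8.08.

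The 2 quantifications gave gene totals within 2-fold for nearly all chosen transcripts and agreed less well on the transcripts themselves. Taking each transcript's mean TPM over the 2 libraries, 193 of the 1057 (18.3%) were 2-fold or more apart, 133 higher in the first and 60 higher in the second. The background over all 20447 transcripts at the minimum was 11.4%, with 8.2% higher in the first and 3.19% higher in the second. By type it was 7.23% for protein_coding, 20.5% for retained_intron and 22.7% for processed_transcript. The transcripts were chosen by the first quantification, which favours those that it set high, and this bears on every count by direction. Chosen on the second quantification by the same rule, there were 1137 transcripts, of which 229 (20.1%) were apart, 195 toward the second and 34 toward the first. The choices shared 909 transcripts, 86.0% of the first choice and 79.9% of the second.

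For 1052 of the 1057 (99.5%) the summed TPM of the gene was within 2-fold between the quantifications, and this held for 190 of the 193 that were apart. The 3 exceptions were in Lars2, Rpl12 and Gm42715. Each chosen transcript was counted, so a gene with several was counted more than once, and no share over all genes is given beside this. Of the 131 higher in the first with an agreeing gene total, the transcript of the gene that gained most TPM in the second was protein_coding in 88, retained_intron in 31, of the same type in 7 and processed_transcript in 5. Across transcripts, log2(TPM + 1) gave Pearson's r = 0.861 and Spearman's rho = 0.793, against 0.961 and 0.946 for protein_coding ones. These are descriptions over transcripts that share libraries and reads. The share differed by a median of 2.79 percentage points, and by under 5 points for 703 transcripts (66.5%).

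**Figure D3:**
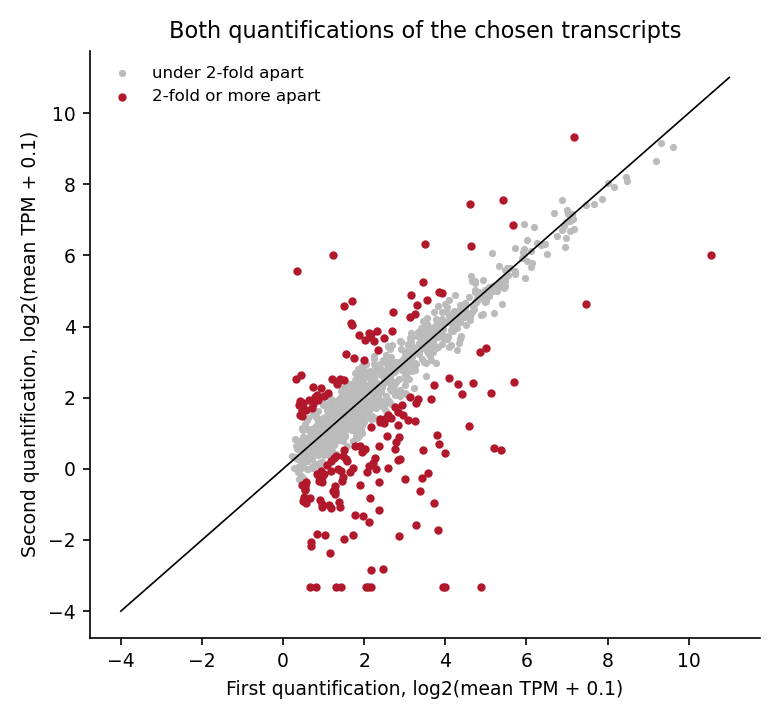
Mean TPM over the 2 libraries in the first and the second quantification, both as log2(mean TPM + 0.1), for the 1057 chosen transcripts, 1 point each. Red points are 2-fold or more apart (193) and the line marks equal values. Most points lie near the line, red points lie on both sides, and the 10 transcripts listed at 0 in both libraries of the second quantification form the bottom row.

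The largest gaps came from transcripts that the second quantification set to 0 or nearly so. Mroh1-208 had 17.9 and 13.6 TPM in the first, Myof-205 had 25.4 and 33.5 and Trip12-209 had 17.8 and 12.6, and all 3 are listed at 0 in both libraries in the second. Myof encodes a membrane-repair ferlin and Trip12 a ubiquitin ligase. Myof-205 shares all its bases with other transcripts of the gene, and its expected counts were 550 and 669. Nfkb1-207, of the p105/p50 subunit gene of NF-kB, had 19.4 and 8.57 TPM against 0.407 and 0. Ctsh-202, of the protease cathepsin H, had 161 and 194 TPM against 19.0 and 30.7, while the protein_coding Ctsh-201 went from 511 and 553 to 586 and 639.

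In the other direction, Ifi209-202, of the interferon-inducible p200 family, had 11.2 and 37.3 TPM in the first and 162 and 187 in the second. Asah1-202, of the lysosomal acid ceramidase, had 7.67 and 14.8 against 37.1 and 121, with the protein_coding Asah1-201 going from 276 and 239 to 221 and 117. Mx1-203 had 35.8 and 50.3 against 183 and 190, so that Mx1-203 gained while Mx1-205, with the same stop codon, lost. Rap1a-204, of a small GTPase of integrin control, had 9.69 and 11.8 against 38.6 and 37.8. Lars2-209, of the mitochondrial leucyl-tRNA synthetase gene, had 120 and 168 against 649 and 641. There the whole gene moved, from 129 and 176 TPM to 796 and 653.

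The transcripts were also split by how much sequence they share with no other transcript of their gene, and the share that was 2-fold or more apart did not follow the amount in order. It was 10.6% of the 170 with no base and no junction of their own, 21.2% of the 491 with only a junction, and 17.9% both of the 201 with 1 to 99 bases and of the 195 with 100 or more. The counts by direction carry the limit that the first quantification chose the transcripts. Of the 170, 7.06% were higher in the first and 3.53% in the second. Of the 491 transcripts with only a junction, 17.7% were 2-fold or more higher in the first and 3.46% higher in the second. Of the 201 these were 10.9% and 6.97%. Of the 195 with 100 or more bases of their own, 6.15% were higher in the first and 11.8% in the second. Protein_coding transcripts in the classes of the 491 and the 195 had 12.6% and 2.27%, and 2.59% and 1.58%. Of the 184 with the stop in an exon outside protein_coding transcripts, 21 were higher in the second and 10 in the first, whereas of the 636 with the stop inside protein_coding exon sequence, 25 were higher in the second and 98 in the first. Partial models without a start codon were apart in 27.3% of 260 cases and the others in 15.3% of 797. These differences were not tested.

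Between the libraries, 135 of the 1057 (12.8%) lay apart by 2-fold or more, 67 toward replicate 2 and 68 toward replicate 1. The background over all 20447 transcripts was 9.11%, with 4.6% and 4.5%, and by type 6.59% for protein_coding and 17.9% for retained_intron. In 131 of the 135 the gene total was within 2-fold. In the second quantification 168 of the 1047 with a ratio there (16.0%) were apart, where the background was 11.2%, and 84 of the 135 were apart in the same direction there. Shares had a median SD of 1.82 percentage points, and 51 transcripts had an SD of 10 points or more. The share in replicate 1 and replicate 2 had a Pearson r of 0.954 over transcripts, a description only.

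**Figure D4:**
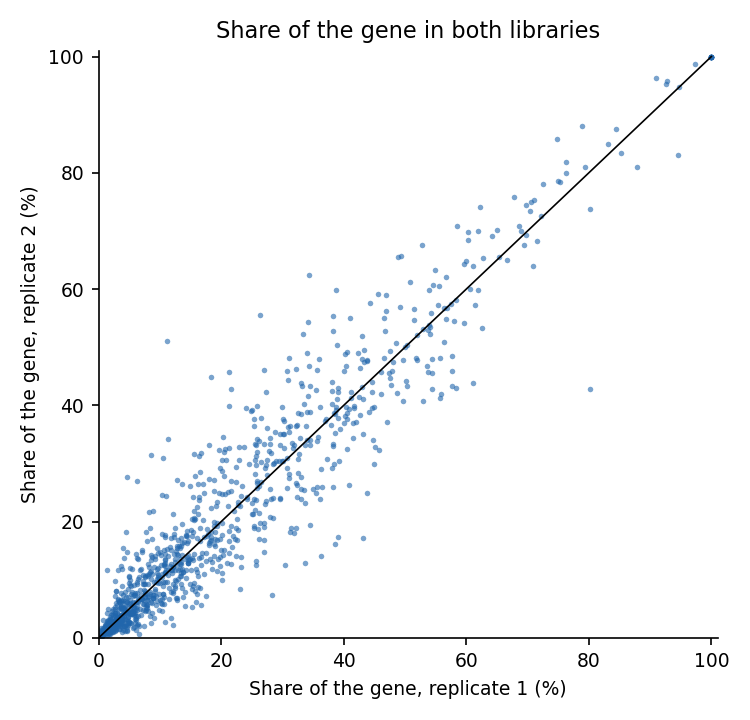
Share of the gene (%) of each of the 1057 chosen transcripts in replicate 1 and replicate 2, 1 point for each transcript, with the line of equal shares. Most points lie near the line (median SD 1.82 percentage points). The point at 11.1% and 51.1% is Fbxo22-205.

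Ywhae-203, of a 14-3-3 protein, had 24.2 TPM in replicate 1 and 2.23 in replicate 2, and 21.5 and 0 in the second quantification, while its gene had a mean of 375 TPM. Eif4a2-217, of a translation initiation helicase, had 20.9 and 2.63 TPM, and Arf4-203, of a Golgi GTPase, 77.6 and 23.6. In the other direction, Ociad1-208 had 3.29 and 39.2 TPM and Cux1-213, of a homeodomain factor, 1.38 and 10.4. Fbxo22-205, of a ubiquitin ligase subunit, had 2.05 and 10.4 TPM, and its share went from 11.1% to 51.1% between the libraries.

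Counts behind the transcripts ranged widely. The lowest expected count behind a chosen transcript was 2 in replicate 1 and 3.64 in replicate 2, the medians were 184 and 174, and 33 transcripts had under 10 in a library. Of these 33, 30.3% were 2-fold or more apart between the libraries, against 2.70% of the 111 with 1000 or more counts. The former were also shorter (median 412 against 2197 nt) and lower (1.96 against 30.6 TPM), and these were not told apart from depth. The first quantification was deposited with an interval for each TPM, whose level its header does not give. Its lower bound reached 1 TPM in both libraries for 721 transcripts (68.2%), against 86.5% of protein_coding ones. The interval need not hold the TPM used here, which lay outside it in either library for 12 transcripts. Lars2-209 had 119.85 TPM in replicate 1, with bounds of 113.4 and 118.8. The bounds were 943 and 1027 TPM for Gpnmb-202 in replicate 1, far above the 27.2 TPM of the second quantification, so that these intervals do not cover the difference between the quantifications.

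At the minimum itself, BC004004-214 (1.20 and 1.00 TPM), Polb-202 (1.55 and 1.00) and Pstk-205 (3 and 1.00) were just inside. Cntrl-208 (1.71 and 0.99), Ogg1-203 (1.71 and 0.99) and Tmem222-203 (1.98 and 0.99) were just outside. The second quantification put both libraries of Ogg1-203 and Tmem222-203 above 1 TPM and both of BC004004-214 below it.

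The libraries held 50493948 and 46336437 expected counts. All 8 macrophage markers were present, from 74.4 to 11210 TPM, and those of B cells, dendritic cells and fibroblasts reached at most 1.35 TPM. Of the T cell list, Cd4 had 42.9 and 40.2 TPM and Cd3e was near 0. Neutrophil markers summed to 61.3 TPM in replicate 1 and 3.84 in replicate 2. Of these, S100a8 had 23.1 and 1.57 and S100a9 37.85 and 2.23, while Mpo had 0.13 and 0, Elane 0.19 and 0.04, and Ly6g 0. Endothelial markers summed to 14.3 and 44.7, of which Kdr alone made 11.0 and 41.6 while Pecam1 had 1.96 and 2.23 and Cdh5 1.38 and 0.87. In bulk RNA, fewer cells of a type and less RNA per cell cannot be told apart, and the part of these differences in the values above was not tested.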

How the data were processed

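The 2 polyA RNA-seq libraries were analysed. Both transcript quantifications were deposited per library on mm10 with the GENCODE M21 annotation, per the file headers and notes. For the programs, settings and strand handling nothing was given in the sources. The first gives expected counts, TPM, isoform percentages (percent of the gene) and posterior mean TPM with interval bounds (a signal scale), as the authors deposited them. The second gives estimated counts and TPM as deposited. Of the first table's entries, 26440 are not in the second and carry no type.

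Transcripts were joined by identifier with Python 3.11.15 and pandas 2.3.3. Lengths of all 1057 transcripts matched the annotation. Means and SDs are over 2 libraries. A transcript was called apart at a 2-fold ratio of means, with no pseudocount. Scaling was checked with edgeR 4.0.16. The calling step was tested on simulated counts, drawn independently for each quantification with planted changes beyond the 2-fold line. The real quantifications read the same libraries, so that test does not bear on the agreement reported here. Named transcripts are the 15 highest by TPM, the 15 with the highest share in genes at 10 TPM, up to 5 for each of 12 gene lists, the 5 furthest apart in each direction for each comparison, and the 3 on either side of the minimum. Others, such as Rpl12-201, Rsad2-202, Tmem234-209 and Spic-202, were chosen after their values were seen. Some named items are not reported here. Members and lists were chosen with earlier results of these data known.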

Additional observations from a re-analysis of the deposited data

How the results depend on the processing

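Of 35 alternatives to the counts and medians, 24 kept the value within 1.5 times (counts) or within the SD of 0.0874 percentage points between the libraries (median share), and 11 did not. A minimum of 5 TPM left 380 transcripts. The median share was 8.66% from expected counts, 12.5% from the second quantification and 12.9% from posterior mean TPM. It was 15.4% over protein_coding and nonsense_mediated_decay transcripts alone, and 14.0% with 10 or more expected counts. Without replicate 2 it was 13.4%, which was outside that SD, and without replicate 1 it was 13.6%, which was inside it. Transcripts 2-fold or more apart between the quantifications numbered 128 with a pseudocount of 1 TPM, 358 at a 1.5-fold line and 80 at a 4-fold line. Between the libraries, 73 were apart with a pseudocount of 1 TPM. For the second quantification, the posterior mean and the median without replicate 2 the cause was not tested. The others use another unit, pseudocount, set of transcripts or line by construction. No paired analysis was possible because there is 1 group. Precision is lowest for the 33 transcripts with under 10 expected counts in a library.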

Other observations

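Some transcripts of the type were seen by the second quantification only. By the rule applied to it, 19 of its 1137 transcripts are listed at 0 in both libraries of the first. Spic-202, of the transcription factor of iron-recycling macrophages, was the highest, with 19.3 and 20.0 TPM, which was 34.8% and 48.6% of its gene. Tor1aip1-206, of a nuclear envelope protein, had 12.8 and 20.2 TPM but 5.91% and 6.70% of its gene. Trip12-205 had 13.5 and 10.7 TPM, while Trip12-209 is listed at 0 in the second quantification and had 17.8 and 12.6 TPM in the first.

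In 114 genes there were 2 or more chosen transcripts. Tmem234, with 7, held 47.8% ± 2.32 of its TPM in them in the first quantification and 48.4% in the second, although single transcripts such as Tmem234-209 went from 5.57% to 8.17%.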
